A study of Mus musculus with 8 samples.

Results

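The transcripts of glucose breakdown and glycogen metabolism were followed in whole mouse knee joints through 41 genes, chosen by name as the glucose transporters, glycolytic enzymes, lactate enzymes and glycogen enzymes of muscle and of other tissues. The 41 names matched 42 of the 20681 rows of the deposited table, because Aldoa stands there in a pair of rows. Every one of the 42 rows passed the filter on low values, a normalised read count of 10 or more in 4 or more libraries, and they were tested among 14949 genes in all. All 8 joints came from mice of the genotype Acan-Cre;Loxl2 fl/fl, in which Cre under the promoter of aggrecan, made by cartilage cells, can delete Loxl2, the gene of a collagen-crosslinking enzyme. Of these joints, 4 were vehicle-treated controls, with wt in the library name, and 4 were labelled conditional knockout, with ko in the name. The names of all 8 libraries carry DMM, which usually stands for surgical destabilisation of the medial meniscus. The labels used here do not give the age, the sex, the time after surgery or what the knockout animals received in place of vehicle, so any such agent is part of the comparison. Nor do they say whether the libraries of a group came from separate animals, and p-values then measure the spread between these libraries.

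Glycolysis splits glucose into pyruvate and yields ATP without oxygen, and lactate dehydrogenase turns pyruvate into lactate when its supply outruns oxidation. Glycogen is the branched store of glucose that skeletal muscle builds at rest and breaks down through glycogen phosphorylase when it contracts. Several steps are run by different genes in different tissues: skeletal muscle uses Slc2a4, Pfkm, Pgam2, Eno3 and Pygm, where most other cells use Slc2a1, Pfkl or Pfkp, Pgam1, Eno1 and Pygb or Pygl. The rows were accordingly sorted into 8 muscle-type isoforms, 12 isoforms typical of other tissues, and 22 rows of enzymes that muscle shares with other tissues. A whole knee holds muscle beside bone, cartilage, synovium and marrow, and in such bulk samples fewer cells of a type and less RNA per cell cannot be told apart.

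The sequences upstream of these genes differ between the isoforms of one step. The 250 bases before the annotated start are printed for Pgam2 and Pgam1, the muscle and the general phosphoglycerate mutase, because the transcripts of this pair moved in opposite directions, and for Pygm, the muscle glycogen phosphorylase, because its fall was among the deepest. They are RefSeq windows on GRCm38.p6, written 5′ to 3′ along the strand of the gene. Pgam2 lies on the minus strand at chr11:5803797-5804046, Pgam1 on the plus strand at chr19:41911621-41911870, and Pygm on the plus strand at chr19:6384158-6384407. Capitals mark matches on either strand to CAGCTG, an E-box that reads the same on both strands, and to ACGTG, the core of the hypoxia response element, which reads CACGT on the other strand.
Pgam2: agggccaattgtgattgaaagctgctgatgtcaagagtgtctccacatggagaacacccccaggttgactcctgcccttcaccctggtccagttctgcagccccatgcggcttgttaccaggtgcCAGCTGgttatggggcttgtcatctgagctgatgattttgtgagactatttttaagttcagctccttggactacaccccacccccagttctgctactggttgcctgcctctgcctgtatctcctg
Pgam1: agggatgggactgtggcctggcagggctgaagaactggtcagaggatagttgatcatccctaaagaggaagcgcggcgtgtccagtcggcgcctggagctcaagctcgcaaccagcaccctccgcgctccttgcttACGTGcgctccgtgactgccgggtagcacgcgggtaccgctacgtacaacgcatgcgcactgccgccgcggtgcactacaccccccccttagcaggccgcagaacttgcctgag
Pygm: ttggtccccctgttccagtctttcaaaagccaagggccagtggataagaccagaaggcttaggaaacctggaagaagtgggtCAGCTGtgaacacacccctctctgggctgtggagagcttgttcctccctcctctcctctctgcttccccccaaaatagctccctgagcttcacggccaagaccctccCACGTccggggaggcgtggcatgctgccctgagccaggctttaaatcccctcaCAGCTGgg
The Pgam2 window held 1 CpG dinucleotide and 1 CAGCTG, the Pgam1 window 22 CpG and 1 ACGTG, and the Pygm window 4 CpG, 2 CAGCTG and 1 ACGTG. The Pygm window ends at 6384407, while the GENCODE coordinates given further on start the gene at 6384399. By those coordinates the CAGCTG nearest the end of the window lies inside the gene.

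RefSeq windows were found for 39 of the 41 genes, 55 windows in all, since some genes have several starts whose windows can overlap. CAGCTG stood in 4 of the 10 windows of muscle-type genes (40%), in 0 of the 15 windows of other isoforms, and in 13% of all 32851 windows in the table. In the largest class, shared enzymes, it stood in 5 of 30 windows (16.7%). CTA and TAG with 4 bases of any kind between them form a looser pattern than the core of MEF2 binding sites. This pattern stood in 1 muscle-type window (10%), in 0 of other isoforms, in 1 of shared enzymes (3.33%) and in 3.2% of all windows. ACGTG stood in 40% of muscle-type windows, 46.7% of other-isoform windows, 40% of shared-enzyme windows and 16.6% of all windows. CACGTG, another E-box, would match ACGTG on both strands, and none of the 3 motifs searched contains another. The median CpG number was 3.5 per window for muscle-type genes, 14 for other isoforms, 14 for shared enzymes and 6 over all windows. These matches describe the letters in the window and were not tested against the expression values.

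The libraries held 13991000 to 17411617 reads assigned to genes, recovered as explained under processing. Loxl2 itself was checked first. Its normalised read counts, in the order of replicates 1 to 4 as in every list of values here, were 282.3, 349.3, 1135 and 311.1 for the controls and 892.6, 1468, 960.3 and 1518 for the labelled knockout. It was thus higher in the libraries labelled knockout (log2 difference 1.44, SE 0.40, adjusted p = 0.0294), opposite to what deletion by itself would give. Cre under the aggrecan promoter is active in cartilage cells, a part of the joint, so these whole-joint counts cannot check the label. The direction of every difference here rests on those labels. Transcripts of Y-linked genes were present in 3 libraries, control replicates 3 and 4 and knockout replicate 2, and Xist in the other 5, so the groups held unequal numbers of each sex. Of all genes tested, 23.2% were called, that is, had a Benjamini-Hochberg adjusted p under 0.05 in limma across all 14949 genes. Differences are given as log2 of the normalised read count plus 1, labelled knockout minus control, and levels as mean ± SD with n = 4 per group.

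Lower calls outnumbered higher calls among the glycolytic and glycogen transcripts of the labelled knockout joints. Of the 42 rows, 19 were called lower (45.2%), where 11.6% of all genes were, and 4 were called higher, Hk1, Pfkp, Pgam1 and Pgm1 (9.52%), a share no larger than the 11.6% of all genes called higher. The other 19 were not called. The median log2 difference of the 42 rows was -0.54, with 32 below 0, and over all genes it was 0.00. The groups did not overlap, with every labelled knockout library below every control library, for 20 rows, a pattern found in 13.4% of all genes. The opposite held for 2 rows, Hk1 and Pgm1, and for 11.7% of all genes, which makes 25.1% of all genes with separate groups. Together the members made up 5.12%, 5.43%, 4.99% and 4.91% of the summed values of control replicates 1 to 4. In labelled knockout replicates 1 to 4 the share was 4.14%, 3.91%, 4.29% and 3.44%, so the groups separated, with means of 5.11 ± 0.23% and 3.95 ± 0.37% (exact two-sided permutation p = 0.0286, the smallest that 70 assignments allow).

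**Figure D1:**
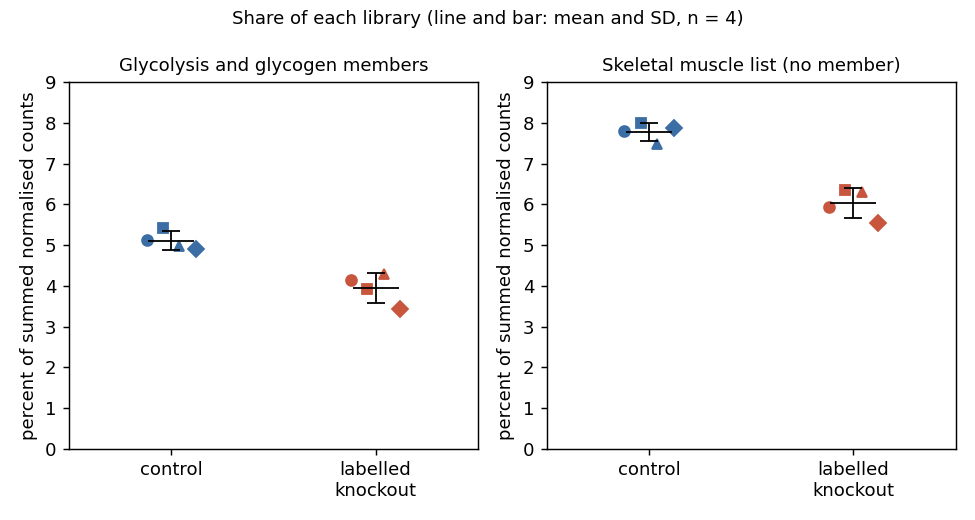
Share of each library's summed normalised read counts, in percent, taken by the 42 member rows (left) and by the 18 genes of the skeletal muscle list (right), for 4 control and 4 labelled knockout libraries, with lines and bars for mean and SD. The members fell from 5.11% to 3.95% and the muscle list from 7.79% to 6.03%, and in both panels the groups do not overlap.

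Of the 8 muscle-type rows 6 were called lower (75%, beside 11.6% of all genes) and 0 higher, with a median of -0.57 and all 8 below 0. Higher calls were also 0 at an unadjusted p under 0.05 in limma and by edgeR and DESeq2. Of the 12 other-isoform rows 2 were called higher, Pfkp and Pgam1 (16.7%), a count near the 11.6% of all genes called higher. None of the 12 was called lower, their median was 0.38 and 8 were above 0. At an unadjusted p under 0.05 in limma 1 was lower, and by edgeR and DESeq2 0 were. Of the 22 shared rows 13 were called lower (59.1%) and 2 higher (9.09%), with a median of -0.56, where 11.6% of all genes were called in each direction. The difference between classes was not tested as such over the lists; for named isoform pairs it is tested further on.

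**Figure D2:**
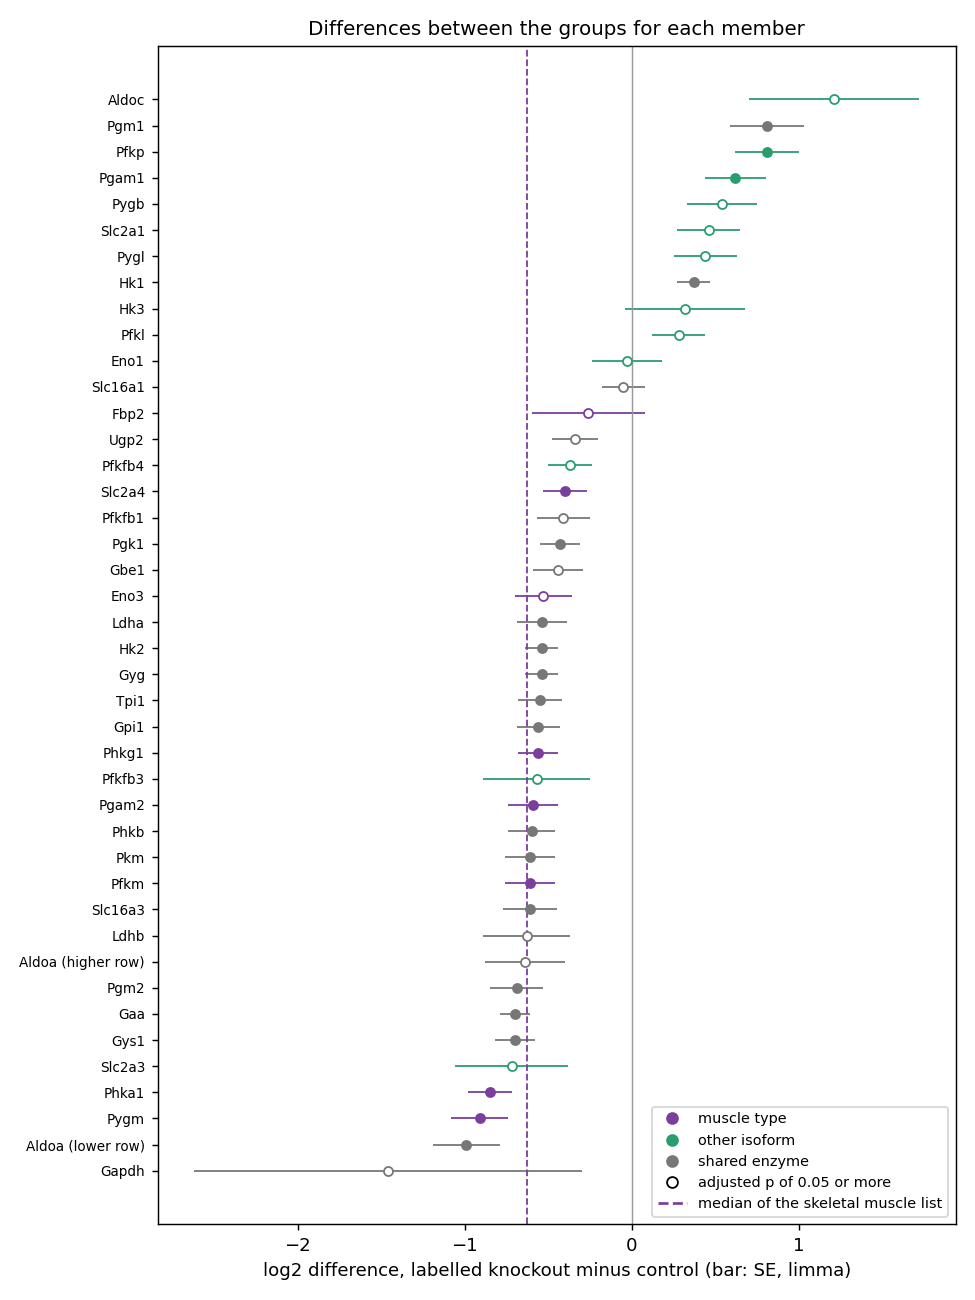
Log2 difference of each member row, labelled knockout minus control, with the limma standard error, ordered by size and coloured by isoform class, with open symbols for rows at an adjusted p of 0.05 or more. Most muscle-type and shared rows lie near the dashed line, the median of the skeletal muscle list at -0.63, while 8 of 12 other isoforms lie above 0.

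Of the glucose transporters, Slc2a4 (GLUT4), the insulin-responsive carrier of muscle and fat, had the highest control level per kilobase of exon, 2539 ± 230, beside 47.9 ± 5.27 for Slc2a1 and 25.0 ± 10.9 for Slc2a3. It was at 9200, 9559, 7708 and 8848 in controls and 6215, 6251, 8494 and 5934 in the labelled knockout, a log2 difference of -0.40 (SE 0.13, adjusted p = 0.0473). Knockout replicate 3 stood inside the control range, so the groups overlapped, and the call was lost when control replicate 1, 2 or 4 or knockout replicate 1, 2 or 4 was left out, with adjusted p up to 0.492 over the alternatives tried. Slc2a1 (GLUT1), the basal transporter of most cells, was at 157.9, 163.5, 195.3 and 155.5 in controls and 193.5, 187.3, 340.4 and 228 in the labelled knockout. Its 2 lowest labelled knockout values were under the highest control, and the difference of 0.46 was not called (SE 0.19, adjusted p = 0.106). Slc2a3 (GLUT3), a high-affinity transporter of neurons and blood cells, ranged from 95.89 to 285.9 in controls and from 63.07 to 140.6 in the labelled knockout (log2 difference -0.72, SE 0.34, adjusted p = 0.146).

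Hexokinases trap glucose as glucose 6-phosphate, and the 2 main forms moved in opposite directions. Hk2, the insulin-regulated form of muscle, was at 5806, 6431, 6236 and 6734 in controls and 3993, 4249, 5215 and 3971 in the labelled knockout (log2 difference -0.54, SE 0.10, adjusted p = 0.00905). Hk1, the form found in most tissues, was at 371, 311.9, 335.6 and 334.1 in controls and 416.9, 395.1, 491.5 and 449.8 in the labelled knockout (0.37, SE 0.10, adjusted p = 0.0282). For both genes the groups were separate. Hk3, a hexokinase of myeloid cells, was low in all libraries, between 24.23 and 91.93, and was not called (0.32, SE 0.36, adjusted p = 0.545).

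In the upper part of glycolysis, which ends in the triose phosphates, Gpi1, Pfkm, the lower Aldoa row and Tpi1 fell and Pfkp rose. Gpi1, which turns glucose 6-phosphate into fructose 6-phosphate, was at 11996, 14729, 13925 and 13404 in controls and 9703, 8308, 11231 and 7683 in the labelled knockout (-0.56, SE 0.13, adjusted p = 0.0164). Pfkm, the muscle phosphofructokinase, lies on chromosome 15 from 98092589 to 98132451 of mm10 and was at 64146, 72084, 67104 and 65744 in controls and 42536, 43484, 52595 and 38569 in the labelled knockout (-0.61, SE 0.15, adjusted p = 0.0178). Every labelled knockout value of both genes was below every control value. Pfkp, the platelet phosphofructokinase, was at 252, 255.4, 421.5 and 271.7 in controls and 393.9, 527.7, 544.8 and 611.8 in the labelled knockout (0.81, SE 0.19, adjusted p = 0.0163). Control replicate 3 overlapped the labelled knockout range, and without knockout replicate 4 the call was lost. Pfkl, the liver phosphofructokinase, was at 322.3, 247.3, 267.3 and 227.8 in controls and 272.3, 282.2, 426.3 and 318.6 in the labelled knockout, with overlap and no call (0.28, SE 0.16, adjusted p = 0.246).

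Aldolase A, which splits fructose 1,6-bisphosphate, took more reads than any other member. Its higher row was at 258224, 292162, 250152 and 238009 in controls and 184627, 148951, 205005 and 134425 in the labelled knockout, and it alone made up 30.5 ± 1.1% of the members' summed values in controls and 30.2 ± 1.9% in the labelled knockout (exact permutation p = 0.83). The groups were separate, but the difference of -0.64 was not called (SE 0.24, adjusted p = 0.0801). The lower Aldoa row was at 1933, 1538, 1140 and 1234 in controls and 937.5, 851, 595.9 and 565.1 in the labelled knockout, and it was called lower (-0.99, SE 0.20, adjusted p = 0.0109). The annotation holds adjacent genes named Aldoa on the minus strand of chromosome 7, and the table does not say which row is which. Aldoc, the brain aldolase, was low, at 21.63, 9.085, 7.477 and 7.668 in controls and 41.89, 9.408, 33.71 and 29.93 in the labelled knockout, and its difference of 1.21 was not called (SE 0.51, adjusted p = 0.110). Tpi1, triose phosphate isomerase, was at 33855, 41428, 35484 and 35394 in controls and 24230, 26791, 27874 and 21103 in the labelled knockout, with separate groups (-0.55, SE 0.13, adjusted p = 0.0179).

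The 4 members placed under control of fructose bisphosphates, not all the genes with that role, had differences below 0. Of these 4, limma, edgeR and DESeq2 called 0, with 2 lower at an unadjusted p under 0.05 in limma. Pfkfb1, Pfkfb3 and Pfkfb4 make and remove fructose 2,6-bisphosphate, the activator of phosphofructokinase, and Fbp2 is the fructose bisphosphatase of muscle. Their log2 differences were -0.41 (SE 0.16, adjusted p = 0.0906), -0.57 (SE 0.32, adjusted p = 0.217), -0.37 (SE 0.13, adjusted p = 0.0699) and -0.26 (SE 0.34, adjusted p = 0.611), in that order. The groups overlapped for each. Fbp2 ranged from 635.6 to 2236 in controls and from 665.5 to 1269 in the labelled knockout, and without control replicate 2 its difference was 0.08.

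In the lower part of glycolysis Pgk1, Pgam2 and Pkm fell and Pgam1 rose. Pgk1, the X-linked phosphoglycerate kinase that makes the earliest ATP of the pathway, was at 12285, 15342, 12573 and 11902 in controls and 8908, 9925, 11246 and 8535 in the labelled knockout (-0.43, SE 0.12, adjusted p = 0.0309). Pgam2 lies on chromosome 11 from 5801640 to 5803733 and was at 23722, 27607, 24786 and 26292 in controls and 15579, 16421, 22535 and 14531 in the labelled knockout (-0.59, SE 0.15, adjusted p = 0.0203). Knockout replicate 3 was the highest of its group for both genes, and both groups were separate. Pgam1 lies on chromosome 19 from 41911923 to 41918660 and was at 303.9, 272.5, 367.3 and 250.8 in controls and 421.9, 344.7, 621 and 477.1 in the labelled knockout (0.62, SE 0.18, adjusted p = 0.0359). Knockout replicate 2 stood below control replicate 3, so the groups overlapped, and 33.9% of the 100-base stretches of Pgam1 also occur in its annotated pseudogenes Pgam1-ps1 and Pgam1-ps2. Pkm, pyruvate kinase of muscle and most other tissues, was at 64418, 69893, 62767 and 61076 in controls and 44434, 42906, 47331 and 34942 in the labelled knockout, with separate groups (-0.61, SE 0.15, adjusted p = 0.0174).

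The enolases turn 2-phosphoglycerate into phosphoenolpyruvate. Eno3, the muscle form, was at 93721, 106470, 87132 and 90866 in controls and 65593, 64756, 78778 and 54726 in the labelled knockout. Its groups were separate, and its difference of -0.53 missed the threshold (SE 0.17, adjusted p = 0.0510). Eno1, the form of most tissues, was at 1458, 2251, 2746 and 1554 in controls and 1856, 1845, 2419 and 1555 in the labelled knockout, all inside the control range. Its difference was -0.03, with a 95% interval of -0.49 to 0.43 (adjusted p = 0.930), and 20.4% of its 100-base stretches occur in other annotated genes.

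Gapdh, glyceraldehyde 3-phosphate dehydrogenase, stood apart from its neighbours in the pathway. It was at 2515, 11972, 586 and 9234 in controls and 1955, 428.5, 9486 and 359.1 in the labelled knockout, a 33.3-fold span, with high and low libraries in both groups. Its difference of -1.46 had an SE of 1.16 and was not called (adjusted p = 0.384). The SD of its log2 values within groups was 2.10, the fifth largest of 2211 genes with a mean value of at least 1000, whose median SD was 0.16. The genes before and after it in the pathway spanned 1.96-fold (Tpi1) and 1.8-fold (Pgk1) over the same libraries. In the annotation 20.9% of the 100-base stretches of Gapdh occur in 86 other genes, and for Pgk1 51.7% occur in 3 other genes. How the authors' counting treated reads that fit several places is not given in the sources used here, and its part in the spread of Gapdh was not tested.

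**Figure D3:**
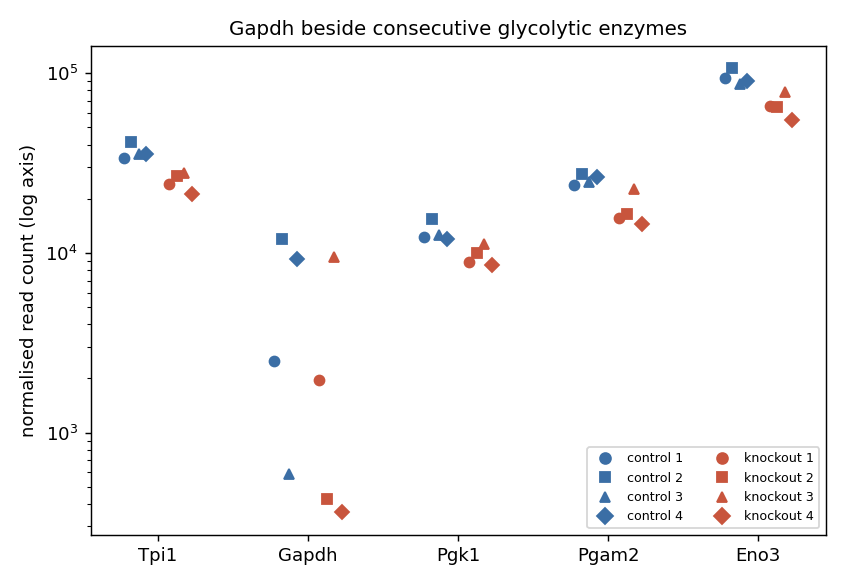
Normalised read count on a log axis of Gapdh and of 4 other glycolytic enzymes, 1 symbol per library. Gapdh ranges from 359.1 to 11972 with both groups mixed, while Tpi1, Pgk1, Pgam2 and Eno3 lie within narrow ranges and the labelled knockout libraries lie below the controls.

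Of the lactate genes, Ldha and Slc16a3 fell. Ldha, the lactate dehydrogenase subunit that prevails in fast muscle, was at 50309, 56568, 44110 and 45670 in controls and 34578, 33755, 39623 and 28060 in the labelled knockout (-0.54, SE 0.15, adjusted p = 0.0307). Slc16a3 (MCT4), the lactate exporter of glycolytic fibres, was at 5192, 5375, 5465 and 5201 in controls and 3401, 3144, 4931 and 2748 in the labelled knockout (-0.61, SE 0.16, adjusted p = 0.0214). Both groups were separate, although knockout replicate 3 came close to the controls for Slc16a3. Ldhb, the subunit of heart and slow muscle, was at 4231, 4732, 2894 and 5006 in controls and 1761, 2135, 3520 and 3861 in the labelled knockout, with overlap (-0.63, SE 0.26, adjusted p = 0.109). Slc16a1 (MCT1), which carries lactate in most cells, had a difference of -0.05 with a 95% interval of -0.33 to 0.24 (adjusted p = 0.812).

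Glycogen synthesis genes were lower where they were called, with the exception of the row named Pgm1. Gys1, the glycogen synthase of muscle, was at 9015, 10240, 8207 and 9639 in controls and 5097, 5296, 7006 and 5509 in the labelled knockout (-0.70, SE 0.12, adjusted p = 0.00608). Gyg, glycogenin, the protein primer of the glycogen particle, was at 5188, 5533, 4643 and 5028 in controls and 3381, 3761, 3844 and 3046 in the labelled knockout (-0.54, SE 0.10, adjusted p = 0.00726). Both groups were separate. The row Pgm2 was at 17562, 18182, 14909 and 17504 in controls and 12687, 11625, 11012 and 7644 in the labelled knockout (-0.69, SE 0.16, adjusted p = 0.0152). The row Pgm1 was at 48.67, 52.49, 74.77 and 67.91 in controls and 87.76, 105.2, 91.35 and 147.9 in the labelled knockout (0.81, SE 0.22, adjusted p = 0.0275). Both were separate between groups and in opposite directions. Phosphoglucomutase interconverts glucose 1-phosphate and glucose 6-phosphate, and annotations have exchanged these 2 mouse symbols, so which locus each row stands for is uncertain. Gbe1, the branching enzyme, and Ugp2, which makes UDP-glucose, were not called, at -0.44 (SE 0.15, adjusted p = 0.0611) and -0.34 (SE 0.14, adjusted p = 0.104), both with overlapping groups.

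Glycogen breakdown held the deepest falls among the muscle-type genes. Pygm lies on chromosome 19 from 6384399 to 6398459 and was at 98895, 111550, 103907 and 110858 in controls and 66965, 57494, 58883 and 44377 in the labelled knockout (-0.91, SE 0.17, adjusted p = 0.00848). Phka1, the X-linked muscle alpha subunit of phosphorylase kinase, which switches phosphorylase on, was at 13466, 12710, 12456 and 14230 in controls and 9117, 7848, 6704 and 5965 in the labelled knockout (-0.85, SE 0.13, adjusted p = 0.00482). These differences mean that Pygm fell by 47.0% and Phka1 fell by 44.6%, with the groups of both genes separate. Phkb, the beta subunit, was at 5746, 7298, 7141 and 7229 in controls and 5079, 5366, 4125 and 3683 in the labelled knockout (-0.60, SE 0.14, adjusted p = 0.0151). Phkg1, the catalytic gamma subunit of muscle, was at 7493, 9022, 7599 and 7715 in controls and 6251, 5132, 5834 and 4455 in the labelled knockout (-0.56, SE 0.12, adjusted p = 0.0118). All 3 kinase subunits were thus lower with separate groups. Gaa, the lysosomal alpha-glucosidase that digests glycogen in lysosomes, was at 5077, 5188, 4669 and 5019 in controls and 2916, 2997, 3588 and 2827 in the labelled knockout, with the smallest p of the 42 rows (-0.70, SE 0.09, adjusted p = 0.00397).

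The phosphorylases of other tissues had differences above 0. Pygb, the brain form, was at 297.4, 147.4, 211.2 and 251.9 in controls and 266.3, 375.5, 286 and 366.2 in the labelled knockout (0.54, SE 0.21, adjusted p = 0.0912). Pygl, the liver form, was at 147.1, 89.84, 151.4 and 121.6 in controls and 170.5, 137.7, 170.7 and 206.9 in the labelled knockout (0.44, SE 0.19, adjusted p = 0.127). Both had overlapping groups and neither was called, with 95% intervals of 0.07 to 1.01 and 0.00 to 0.87.

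**Figure D4:**
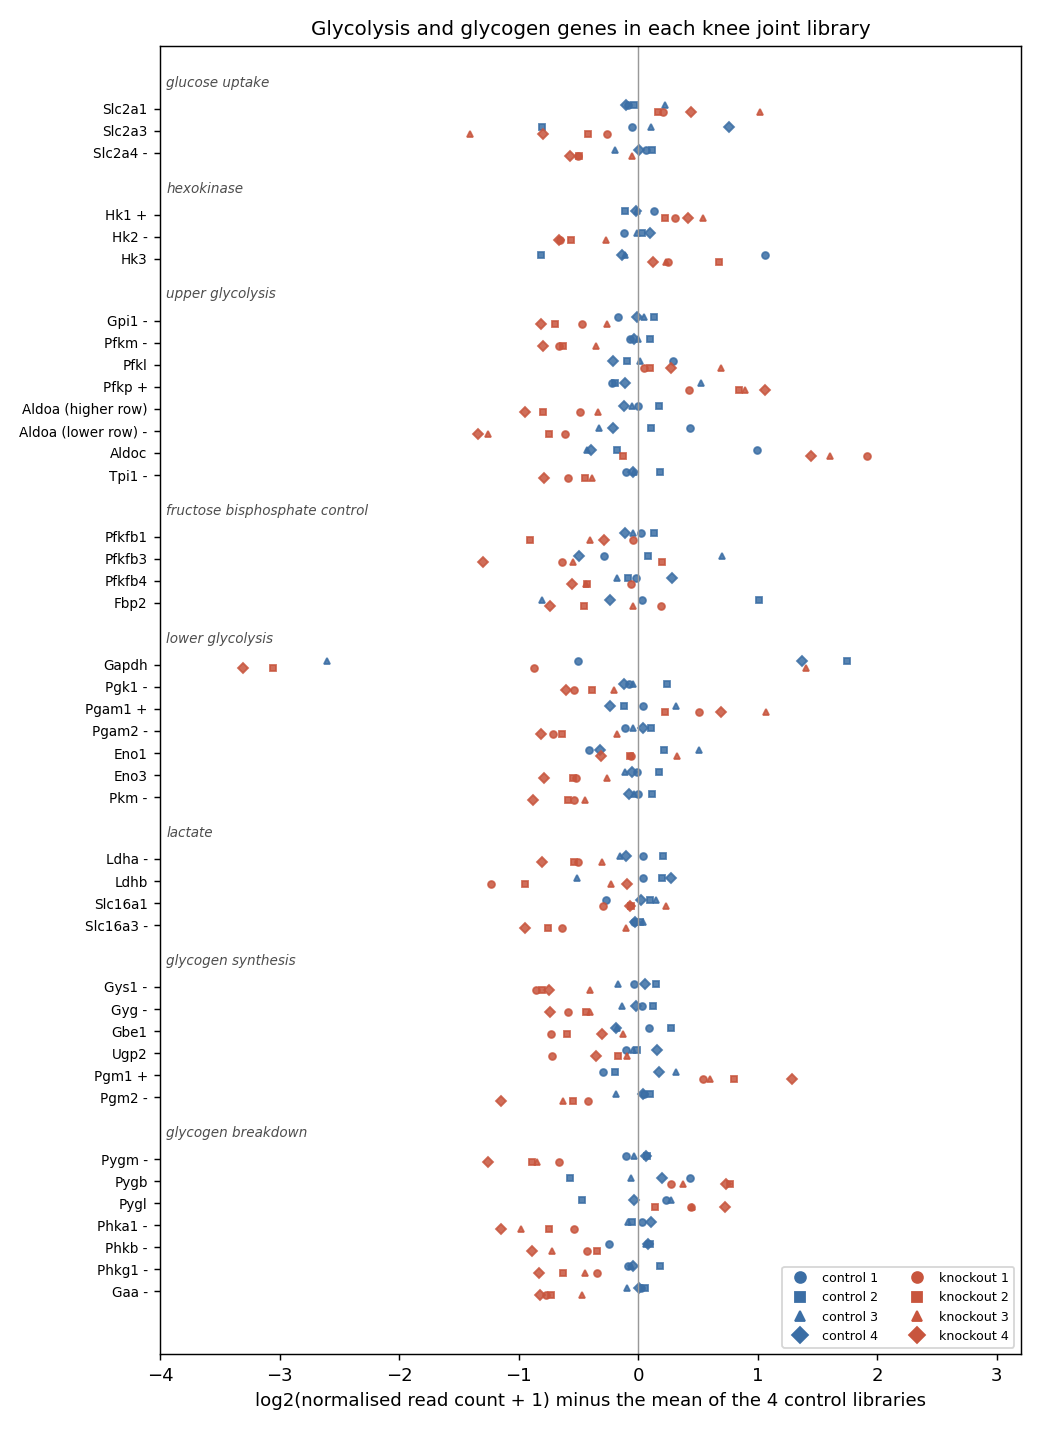
Log2 of the normalised read count plus 1 for each member row in each of the 8 libraries, minus the mean of the 4 control libraries, grouped by pathway step, with + or - after the names of rows called higher or lower. The 19 rows called lower lie to the left in most labelled knockout libraries, Hk1, Pfkp, Pgam1 and Pgm1 to the right, and the Gapdh libraries of both groups scatter on either side of 0.

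At the steps run by Slc2a4, Pfkm, Pgam2, Eno3 and Pygm, these muscle-type isoforms prevailed over their counterparts in every library. Per kilobase of annotated exon, the highest control levels among the genes placed on this scale were 54369 ± 4827 for Eno3 and 33034 ± 1872 for Pygm. Pgam2 followed at 30478 ± 2027 and Pfkm at 20141 ± 1027. On the same per-kilobase scale the counterparts of these genes in other tissues stood at 372.3 ± 113.2 for Eno1, 150.7 ± 25.6 for Pgam1, 47.2 ± 13.2 for Pygb, 39.9 ± 6.10 for Pfkl, 22.4 ± 6.07 for Pfkp and 18.5 ± 4.11 for Pygl. Among these, Eno1 lay above Pgam1 beyond their spread, whereas Pygb and Pfkl did not differ beyond theirs, nor did Pfkp and Pygl. Pfkfb3 and Pfkfb4, other isoforms outside these steps, stood at 542.9 ± 210.1 and 201.8 ± 29.4, beside 253.1 ± 18.0 for Pfkfb1, a shared enzyme. Aldoa, Pgm1 and Pgm2 were left out of this scale because their rows could not be tied to a single locus. The higher Aldoa row, a shared enzyme, had a control mean of 259637. The annotated Aldoa genes have 2911 and 799 bases of exon, and at either length that row would stand above Eno3.

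The balance of isoforms at a step was compared as the log2 ratio of the muscle-type gene to the other gene within each library, which does not depend on how libraries are scaled against each other. Hk2, Aldoa and Ldha were taken as the muscle-type gene of their pairs. Of 10 pairs, 7 had lower ratios in every labelled knockout library than in any control library, each with an exact two-sided permutation p of 0.0286, or 0.0408 after Benjamini-Hochberg adjustment over the 10 pairs. The pairs are not independent, since Pfkm and Pygm recur among them. On the scale of the muscle list described below, 62.3% of all genes were called higher. A fall of a muscle gene against another gene is therefore not particular to these pairs, and its share over all pairs of genes was not counted. Pygm over Pygb was 8.37, 9.55, 8.94 and 8.78 in controls and 7.97, 7.25, 7.68 and 6.92 in the labelled knockout, a difference of -1.45. These ratios are of read counts with no correction for transcript length, so their differences between groups, not their levels, are compared. Pygm over Pygl differed by -1.35 and Pfkm over Pfkp by -1.42. Pgam2 over Pgam1 was 6.28, 6.66, 6.07 and 6.71 in controls and 5.20, 5.57, 5.18 and 4.93 in the labelled knockout, a difference of -1.21. The ratios of Hk2 to Hk1, Pfkm to Pfkl and Slc2a4 to Slc2a1 differed by -0.91, -0.89 and -0.86. For Slc2a4 over Slc2a1 the exact permutation p was 0.0571 when any of the 4 labelled knockout libraries was left out, and for Pfkm over Pfkl it was 0.0571 without knockout replicate 4.

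The other 3 pairs did not pass. Aldoa, by its higher row, over Aldoc differed by -1.85 with overlapping groups (exact permutation p = 0.0571, adjusted 0.0714), and Aldoc rested on few reads. Eno3 over Eno1 was 6.01, 5.56, 4.99 and 5.87 in controls and between 5.02 and 5.14 in the labelled knockout, a difference of -0.50 (exact permutation p = 0.143, adjusted 0.159). Ldha over Ldhb was 3.57 ± 0.30 in controls and 3.66 ± 0.63 in the labelled knockout, a difference of 0.09 (exact permutation p = 0.83, adjusted 0.83).

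**Figure D5:**
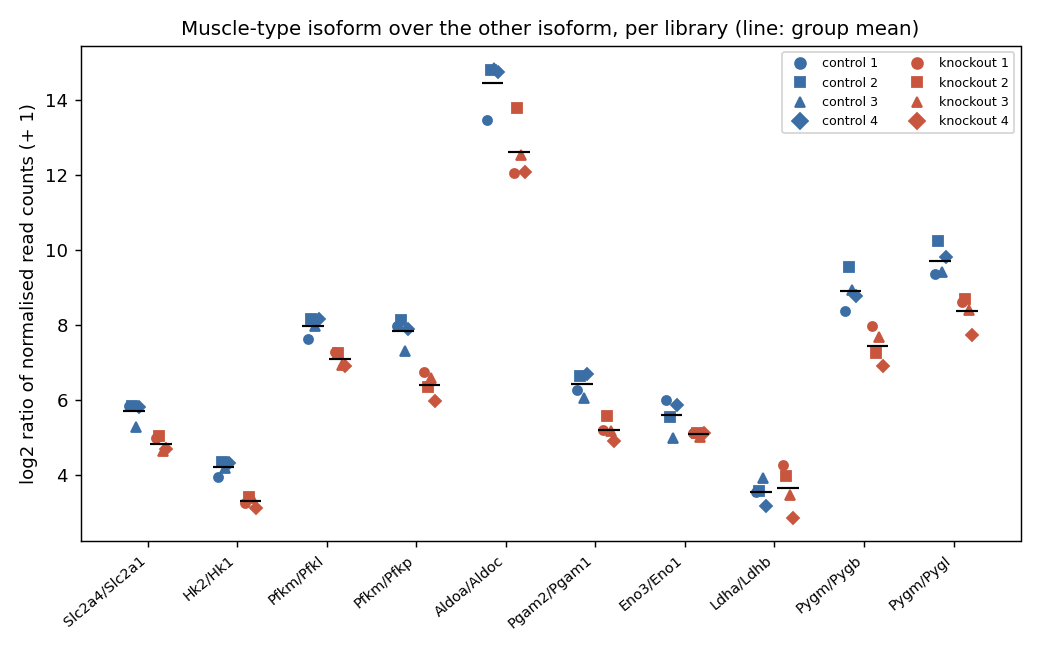
Log2 ratio of the muscle-type gene to the other gene in each library for the 10 isoform pairs, with a line at each group mean. In 7 pairs all labelled knockout libraries lie below all controls, and the groups overlap for Aldoa/Aldoc, Eno3/Eno1 and Ldha/Ldhb.

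Muscle markers were lower as a list as well, though not to the same degree in each gene. A list of 18 skeletal muscle genes that holds no member summed to 1219380 to 1386917 in controls and 735228 to 958630 in the labelled knockout. Of these, 9 were called lower and 0 higher, all 18 were below 0, and their median was -0.63. The differences of single genes in the list ran from -0.20 to -1.04. Ckm, muscle creatine kinase, went from 157231 ± 13560 to 88786 ± 13171 (-0.83, adjusted p = 0.0163), and Acta1, skeletal actin, from 403793 ± 32480 to 253117 ± 42374 (-0.68, adjusted p = 0.0934). Of 10 fast-fibre genes 4 were called lower (median -0.76), and of 8 slow-fibre genes 0 were called by limma, edgeR or DESeq2 and 0 had an unadjusted p under 0.05, with a median of -0.88 and summed levels of 5550 to 45721 in controls and 4116 to 32012 in the labelled knockout. None of the muscle markers was at 0. Tnnc2, a fast-fibre gene, was near the filter value of 10, at 11.91 ± 3.37 in controls and 12.17 ± 5.55 in the labelled knockout. Tnni2 of the same list was at 104219 ± 8326 and 73309 ± 7892. The reason for the low Tnnc2 counts was not tested. The part of muscle content in the members' differences was not tested.

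Markers of fibroblasts, macrophages and osteoclasts held many higher calls. Of 12 fibroblast genes 9 were called higher and 0 lower, with summed levels of 41157 to 122387 in controls and 175672 to 280358 in the labelled knockout. Of 10 macrophage genes 9 were called higher and 0 lower, from 2873 to 6757 and from 10034 to 14267, and of 8 osteoclast genes 7 were called higher and 0 lower. The osteoclast sums were 14065, 1868, 2535 and 2013 in controls and 39329, 10270, 17640 and 29061 in the labelled knockout, so control replicate 1 stood above the other controls and above knockout replicate 2. Of 8 erythroid genes 0 were called by limma or edgeR and 1 was called lower by DESeq2, while all 8 were lower at an unadjusted p under 0.05 in limma, with a median of -1.93 and sums of 16790 to 99092 and 4046 to 42624. Of 10 genes of chondrocytes, the cartilage cells in which Acan is active, 1 was called higher, near the 11.6% of all genes called higher. The part of these cell types in the rise of Hk1, Pfkp, Pgam1 and Pgm1 was not tested.

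The members were also read on a scale set by the muscle list. The mean log2 value of the 18 muscle genes was subtracted from every gene in each library and the fit repeated, which places the median of all genes at 0.60. On that scale 0 of 42 members were called lower, beside 0.268% of all genes, and 11 were called higher (26.2%), beside 62.3% of all genes, or 62.6% in either direction. Of the members 1, Pygm, was lower at an unadjusted p under 0.05. Of the 18 muscle genes themselves 2 were called higher and 2 lower on this scale, so the list did not move as 1. The members' median was 0.07, against 0.03 for the muscle-type rows, 0.05 for the shared rows and 0.98 for the other isoforms. Of the other isoforms 8 of 12 were called higher (66.7%), near the 62.3% of all genes. Pfkm stood at -0.01 with a 95% interval of -0.22 to 0.20, and Pgam2 at 0.02, and the 95% intervals of other uncalled rows were wide, such as -0.93 to 0.70 for Slc2a3 and -3.22 to 1.51 for Gapdh, so the lack of a call does not show that a row moved with muscle. The lowest muscle-type values were those of Pygm at -0.31 (95% interval -0.59 to -0.03, adjusted p = 0.0510) and Phka1 at -0.25 (adjusted p = 0.143). Beside Hk1 and Slc16a1, Slc2a1, Pfkl, Pfkp, Aldoc, Pgam1, Eno1, Pygb, Pygl and Pgm1 were the members called higher relative to muscle.

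The fall was unequal among the labelled knockout libraries. Over the 19 rows called lower, the median log2 value relative to the control mean was -0.59, -0.63, -0.40 and -0.81 in knockout replicates 1 to 4. Replicate 3 was the highest of its group for 13 of the 19 rows and replicate 4 the lowest for 18. The skeletal muscle list had the same extremes, 958630 in replicate 3 and 735228 in replicate 4. Among the libraries with Xist reads, 2 control and 3 labelled knockout, the members' median difference was -0.56, and among those without, 2 and 1, it was -0.42. The muscle-type median was -0.61 and -0.59 in these classes, and the other-isoform median 0.39 and 0.14.

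Other genes of sugar metabolism were read from lists that hold no member, and their counts stand beside the 11.6% of all genes called in each direction. Of 30 further glycolysis and glycogen genes tested, 10 were called lower and 3 higher, with a median of -0.25. Epm2a, the glycogen phosphatase laforin, differed by -0.60 (SE 0.09, adjusted p = 0.00441). Slc2a6, a glucose transporter family member known from leukocytes, was at 16.22, 14.13, 25.24 and 12.05 in controls and 33.91, 59.01, 98.96 and 69.54 in the labelled knockout (1.84, SE 0.36, adjusted p = 0.00897). For both genes the groups were separate.

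Of 8 gluconeogenic and glycerol phosphate genes 3 were called lower (median -0.28), and 0 higher by limma, edgeR or DESeq2, with 1 higher at an unadjusted p under 0.05 in limma. They were G6pc3, a glucose 6-phosphatase, at -0.33 (SE 0.07, adjusted p = 0.0120), its transporter Slc37a4 at -0.65 (SE 0.13, adjusted p = 0.00965), and the glycerol phosphate dehydrogenase Gpd1 at -0.70 (SE 0.14, adjusted p = 0.00975). Of 7 pentose phosphate genes Pgls was called higher at 0.28 (SE 0.07, adjusted p = 0.0246) and Taldo1 lower at -0.33 (SE 0.09, adjusted p = 0.0271), with a list median of 0.28; 1 of 7 in each direction is near the share over all genes. Of 12 genes that make UDP-sugars and hexosamines, the building blocks of matrix polysaccharides, 3 were called higher and 1 lower (median 0.40). Pgm3, of the hexosamine route, was at 0.97 (SE 0.19, adjusted p = 0.00928), the galactokinase Galk1 at 0.64 (SE 0.15, adjusted p = 0.0167) and Mpi, which interconverts mannose and fructose phosphates, at -0.64 (SE 0.12, adjusted p = 0.00725).

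Of 24 genes of hypoxia response and energy sensing 7 were called lower and 2 higher (median -0.14), the higher calls again near or under the share over all genes. Prkag3, the muscle-restricted gamma subunit of AMP-activated protein kinase, was at 3024, 2444, 2893 and 3243 in controls and 1732, 1363, 1190 and 882 in the labelled knockout (-1.20, SE 0.18, adjusted p = 0.00456). Prkab2, a beta subunit of the same kinase, was at -0.90 (SE 0.14, adjusted p = 0.00463), and Mlxip (MondoA), a glucose-sensing transcription factor of muscle, at -0.67 (SE 0.12, adjusted p = 0.00780). All 3 had separate groups.

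Some calls rest on the scaling or on single libraries. No called member changed direction under any of the 19 alternatives, but 18 of the 23 calls were lost under one or more of them. Pygm, Phka1, Gys1, Gaa and the lower Aldoa row were called under all 19. Quantile normalisation left 6 of the 23 calls. Scaling on genes outside muscle, blood, the members and the 50 highest genes moved the median of all genes to 0.14 and the calls over all genes from 1732 higher and 1729 lower to 2590 higher and 840 lower, while 20 of the 23 member calls remained. Without control replicate 2, 12 calls remained and those of Slc2a4, Hk1, Pfkm, Tpi1, Pgk1, Pgam1, Pgam2, Pkm, Ldha, Slc16a3 and Pgm1 were lost. Without knockout replicate 4, 14 remained, all lower, and those of Slc2a4, Hk1, Pfkp, Pgk1, Pgam1, Pgam2, Ldha, Slc16a3 and Pgm1 were lost. The calls of Pgk1, Pgam2 and Ldha were also lost without control replicate 4, knockout replicate 1 or knockout replicate 2, that of Hk1 without control replicate 4 or knockout replicate 3, and that of Pgm1 without control replicate 1 or knockout replicate 2. Pgam1 lost its call without any of control replicates 1, 2 and 4 and knockout replicates 1, 3 and 4, Ldha also without control replicate 1, and Slc16a3 also without knockout replicate 2. The Aldoa higher row and Eno3 were called lower by edgeR and DESeq2.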

How the data were processed

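RNA from 8 knee joint samples was sequenced after poly-A selection, per the labels' protocols. Per the labels and the submitters' processing notes, the authors aligned reads to mm10 with HISAT2, counted them per gene with featureCounts and normalised with DESeq2; versions, annotation, strand use and handling of reads that fit several places are not given in the sources used here. The deposited values are a normalised signal, the read count of a gene divided by the library's size factor, and in each column 100% were whole multiples of the smallest step, within 0.01, giving 13991000 to 17411617 reads. That step, 1.009 for control 2 and 0.9973 for knockout 1, tells little for these columns, being nearly 1. Of the gene names, 12 occurred more than once and 23 were whole numbers.

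Samples were grouped by title. log2(value + 1) of genes with at least 10 in at least 4 libraries was fitted with limma 3.58.1 (R 4.3.3; lmFit, eBayes with trend) and p-values were adjusted by Benjamini-Hochberg over 14949 genes. Single values were compared by exact two-sided permutation over 70 assignments. edgeR 4.0.16 and DESeq2 1.42.0 were run on the recovered reads. The fits were tested on simulated data with 196 changed genes, fewer than were called here. Of 147 limma calls 7 were false, of 154 by edgeR 9, and of 192 by DESeq2 26. In that simulation limma found 55.6% of the log2 changes of 1, so smaller changes can be missed. Coordinates come from GENCODE M21 on mm10, matched for 99.3% of rows, and promoter windows from RefSeq GRCm38.p6. The members, lists and tests were chosen with earlier results of these data known. Named were all members, both genes of each pair and, per related list, at most 3 called genes of smallest p, of which 1 is not reported here. The replicate numbers are not said to pair libraries, so the fit had no block. Alternatives changed the pseudocount, the filter, the scaling, the tool, the block, a term for Xist and the set of libraries.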

Additional observations from a re-analysis of the deposited data

Results flagged for a closer look

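In 4 of the 84 groups of 4 values examined, a library stood apart from the other three by the Dixon criterion at 95%; chance marks about 1 group in 20. Slc2a4 in knockout replicate 3 was at 8494, where the other labelled knockout libraries lay between 5934 and 6251. Pfkp in control replicate 3 was at 421.5, above the other controls at 252 to 271.7. Phkb in control replicate 1 was at 5746, under the other controls at 7141 to 7298, and Phkg1 in control replicate 2 was at 9022, above the other controls at 7493 to 7715.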

How the results depend on the processing

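Of 793 results for single members under the alternatives, 692 kept direction and call, 74 lost the call, 18 gained it and 9 changed sign, none of the 9 in a called member. Over all genes, a replicate block gave 2018 calls, 1117 higher and 901 lower, and scaling on genes outside muscle, blood and the highest genes (the outside scaling) 840 lower; leaving out a library gave 1740 to 3832 calls, 816 to 1825 higher and 924 to 2007 lower. For the members, quantile normalisation gave 6 calls, 1 higher and 5 lower, among them 2 muscle-type, 3 shared lower and 1 other-isoform higher. The replicate block gave 15 calls, 3 higher and 12 lower, of which 3 were muscle-type. Relative to the muscle list it gave 1 lower call. The numbers have no stated shared origin, the deviations of same-numbered libraries correlated at 0.21, -0.12, -0.23 and -0.06 for numbers 1 to 4, and 1 of the 4 controls correlated best with its own number. The Xist term, chosen after seeing the data, left 1 other isoform called higher; Pgam1 was lost. Leaving out a library gave 12 (without control replicate 2; 14 without knockout replicate 4) to 24 member calls, 0 to 4 higher, 11 to 22 lower, 3 to 7 muscle-type lower, 0 to 3 other-isoform higher, 8 to 15 shared lower, and 0 to 2 lower relative to the muscle list. Pair differences then ran from -1.0 to -0.79 for Slc2a4/Slc2a1 (exact permutation p = 0.0571 in 4 of 8 cases), -1.0 to -0.82 for Pfkm/Pfkl (0.0571 in 1 of 8), -0.70 to -0.36 for Eno3/Eno1 and -0.12 to 0.36 for Ldha/Ldhb, the last being -0.04 with control replicate 4 left out and -0.12 or -0.02 with knockout replicate 1 or 2 left out. List scores ran from 1.41 to 1.87 for fibroblast, 2.40 to 3.45 for osteoclast, -0.54 to 0.08 for adipocyte (0.08 without control replicate 1) and -0.29 to 0.03 for endothelial genes (0.03 without knockout replicate 1). Without a library in turn, Fbp2 ran from -0.53 to 0.08, Eno1 from -0.17 to 0.14 and Slc16a1 from -0.14 to 0.03. Signs changed for Fbp2 without control replicate 2 (0.08), for Eno1 with quantile normalisation (0.13), the outside scaling (0.11), and without control replicate 2 (0.04), control replicate 3 (0.14) or knockout replicate 4 (0.06), and for Slc16a1 with quantile normalisation (0.07), the outside scaling (0.09) and without knockout replicate 1 (0.03). The cause of these changes was not tested. With 4 libraries a group no exact p can fall under 0.0286.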
